A study of Mus musculus with 9 samples.

Results

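The beta subunits of the sodium-potassium pump, Atp1b1, Atp1b2 and Atp1b3, were described across RNA-seq libraries prepared as mouse Müller glia, the radial glia that span the retina. The 3 genes were picked by name because Atp1b2 was lower in the ocular hypertension (OHT) libraries than in the sham libraries, so the sham and OHT values of these genes are given as a description, with no test. They are 3 of the 16367 genes of the table of sorted cells and 3 of the 17035 genes of the table of cultured cells, and 3 of 3 were found in each. Other genes of the pump, its small regulators and partners, and other ion transporters were followed as 37 further listed genes, of which 34 are in the sorted table.

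The series held 3 groups of 3 libraries, all from wild-type (WT) mice. Sham animals had a corneal incision without oil, and OHT animals had 1.2 µL of silicone oil placed in the anterior chamber of both eyes, which gives a chronic mild rise of eye pressure. Each of these 6 libraries came from 4 pooled neural retinas freed of pigment epithelium, dissociated with papain, cleared of dead cells and enriched on magnetic beads with an antibody to GLAST, the glutamate transporter encoded by Slc1a3, which astrocytes carry too. The third group was primary Müller glia grown from C57BL/6J pups of postnatal day 8 to 10 in serum-containing medium, passaged and left untreated. The age and sex of the sorted animals were not given in the sources used here. Where p-values are printed, they measure the spread between pooled libraries.

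The sodium-potassium pump moves sodium out of and potassium into the cell at the cost of ATP. Its alpha subunit carries the ATPase and the ion path. The beta subunit, a single-pass glycoprotein, is needed to fold the alpha subunit and bring it to the cell surface, and it also takes part in adhesion between cells. Proteins of the FXYD family bind the complex and tune its affinity for ions. Atp1b1 is the widespread beta subunit. Atp1b2 was first described as the adhesion molecule on glia (AMOG), and in the retina it is also carried by photoreceptors. Atp1b3 is found in many tissues, blood cells among them. In the retina the pump supports the dark current of rods, which consumes much of their ATP, and the uptake of potassium and glutamate by Müller glia.

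The promoter letters of Atp1b1 and Atp1b3 are shown, since RefSeq windows were found for only these 2 of the 3 beta subunits. Both are 250 bases upstream of the RefSeq start in build GRCm38.p6, read 5′ to 3′ on the minus strand. Capitals mark matches, on either strand, to the motifs searched, which were GGGCGG (the GC box), CCAAT (the CCAAT box), TATAAA (the TATA box), TAATCC (the core that photoreceptor homeodomain factors such as Crx bind) and CACGTG (an E-box).
Atp1b1, chr1:164458356-164458605: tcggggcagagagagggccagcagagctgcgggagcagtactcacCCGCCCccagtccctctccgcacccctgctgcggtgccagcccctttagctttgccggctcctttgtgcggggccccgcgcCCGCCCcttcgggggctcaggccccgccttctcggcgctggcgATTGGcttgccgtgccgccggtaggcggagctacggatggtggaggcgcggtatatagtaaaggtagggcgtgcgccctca
Atp1b3, chr9:96364432-96364681: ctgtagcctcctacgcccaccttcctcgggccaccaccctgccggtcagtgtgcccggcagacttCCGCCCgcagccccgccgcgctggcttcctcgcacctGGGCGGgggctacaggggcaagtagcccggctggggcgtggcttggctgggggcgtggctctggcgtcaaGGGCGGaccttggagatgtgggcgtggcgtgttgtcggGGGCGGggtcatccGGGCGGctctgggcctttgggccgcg
The Atp1b1 window is 70.4% G or C and held 2 matches to GGGCGG and 1 to CCAAT. The Atp1b3 window is 73.6% G or C and held 5 matches to GGGCGG and 0 to CCAAT. Neither held an exact match to any of the other 3 motifs, and variants of the motifs were not searched. Over 32851 RefSeq windows of this length, 32.7% held GGGCGG, 33.8% CCAAT, 12.4% TATAAA, 6.25% TAATCC and 6.02% CACGTG, and the median G or C content was 52.4%. A second RefSeq start of Atp1b3, at chr9:96363716-96363965 and 76.8% G or C, held 1 CACGTG and none of the other motifs.

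Depth and cell composition differed among the libraries. Recovered reads ranged from 37.8 to 44.5 M (1e6 reads) in sham, 47.1 to 53.6 M in OHT and 66.3 to 76.7 M in the cultures, so 1 read was worth 0.0130 to 0.0264 ppm, that is reads per 1e6 reads of the library. The 12 Müller glia markers, none of them at 0 in any library, summed to 0.356 to 0.867% of reads in sham, 0.191 to 0.425% in OHT and 0.0428 to 0.0539% in the cultures. The 14 rod markers, none at 0 in a sorted library, summed to 0.303, 2.81 and 2.29% in sham replicates 1, 2 and 3 and to 0.107, 0.125 and 0.370% in OHT. The 12 microglia markers, none at 0 in any library, took more reads than the Müller glia list in each of the 6 sorted libraries, at 3.41 to 5.29% in sham and 4.65 to 6.27% in OHT. The 4 astrocyte markers ranged from 0.00136 to 0.119% in sham and 0.00202 to 0.00999% in OHT, with Pax2 at 0 in sham replicate 1 and in OHT replicates 1 and 2. At this depth a gene at 0 could still hold up to 3 reads, or at most 0.0793 ppm, counting error only. Mitochondrially encoded genes took 14.1 to 19.6% of reads in sham and 2.19 to 6.13% in OHT. In the cultures Rlbp1, which encodes the retinaldehyde carrier of Müller glia, stood at 1.60 to 2.84 ppm, against 389 to 2090 ppm in the sorted libraries. The Müller glia markers were not alike in this. Mean levels in culture and sham were 0.17 and 192 ppm for Abca8a, 215 and 1107 ppm for Dkk3, and 130 and 123 ppm for Dbi. The 4 fibroblast markers took 0.567 to 0.805% of culture reads. Of these Col1a1 and Col1a2 averaged 5717 and 1414 ppm and Lum 0.255 ppm.

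Atp1b2, the glial adhesion subunit, was abundant in sham, lower in OHT and nearly missing from the cultures. Its normalised counts were 9290.5, 47260.2 and 33061.4 in sham replicates 1, 2 and 3 and 2904.4, 5654.4 and 3841.0 in OHT replicates 1, 2 and 3. The groups did not overlap, but sham replicate 1 lay closer to the highest OHT library than to the other sham libraries. The ratio of the group means was 7.23, and the difference of mean log2 values, OHT minus sham, was -2.62 (SD 1.23 in sham and 0.48 in OHT, n = 3 each). Within sham alone the highest library exceeded the lowest 5.09-fold. As a share of each library's reads, Atp1b2 averaged 739 ± 483 ppm in sham and 91.3 ± 43.0 ppm in OHT (SD, n = 3 each). These are bulk libraries, in which fewer cells of a type and less RNA per cell cannot be told apart.

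Atp1b1, the widespread subunit, was the scarcest of the 3 per kilobase in the sorted libraries and the most variable there. Its normalised counts were 402.9, 4037.4 and 2894.4 in sham replicates 1, 2 and 3 and 94.0, 700.5 and 89.8 in OHT replicates 1, 2 and 3. OHT replicate 2 lay above sham replicate 1, so the groups overlapped. The ratio of the means was 8.29, larger than that of Atp1b2, and the mean log2 difference was -3.20, but the SD on this scale was 1.80 in sham and 1.68 in OHT (n = 3 each). The highest library exceeded the lowest 10.0-fold within sham and 7.80-fold within OHT. Its levels averaged 60.3 ± 46.6 ppm in sham and 6.56 ± 8.08 ppm in OHT (SD, n = 3 each). The OHT mean went to 1.90 ppm without OHT replicate 2, and the sham mean to 39.2 ppm without sham replicate 2.

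Atp1b3 was the most even of the 3 in sham and in the cultures, but not in OHT. Its normalised counts were 8110.7, 13694.9 and 11357.6 in sham replicates 1, 2 and 3 and 14859.1, 12827.6 and 2755.9 in OHT replicates 1, 2 and 3. The highest and the lowest of these 6 normalised counts both came from OHT, and the groups overlapped. The mean log2 difference was -0.42 (SD 0.38 in sham and 1.35 in OHT, n = 3 each), and the ratio of the means was 1.09. Without OHT replicate 3 the log2 difference turned to 0.35, so on this scale its sign rests on that library. Within sham the highest library exceeded the lowest 1.69-fold, less than for Atp1b1 or Atp1b2, and within OHT 5.39-fold, against 1.95-fold for Atp1b2. Its levels averaged 274 ± 70.6 ppm in sham and 197 ± 112 ppm in OHT (SD, n = 3 each). In ppm the order of libraries differed from that of the normalised counts. Sham replicate 2 was highest at 348 ppm, above OHT replicates 1 and 2 at 226 and 291 ppm. Without OHT replicate 3 the OHT mean was 258 ppm, still below the sham mean, so the sign depends on the scaling too.

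**Figure D1:**
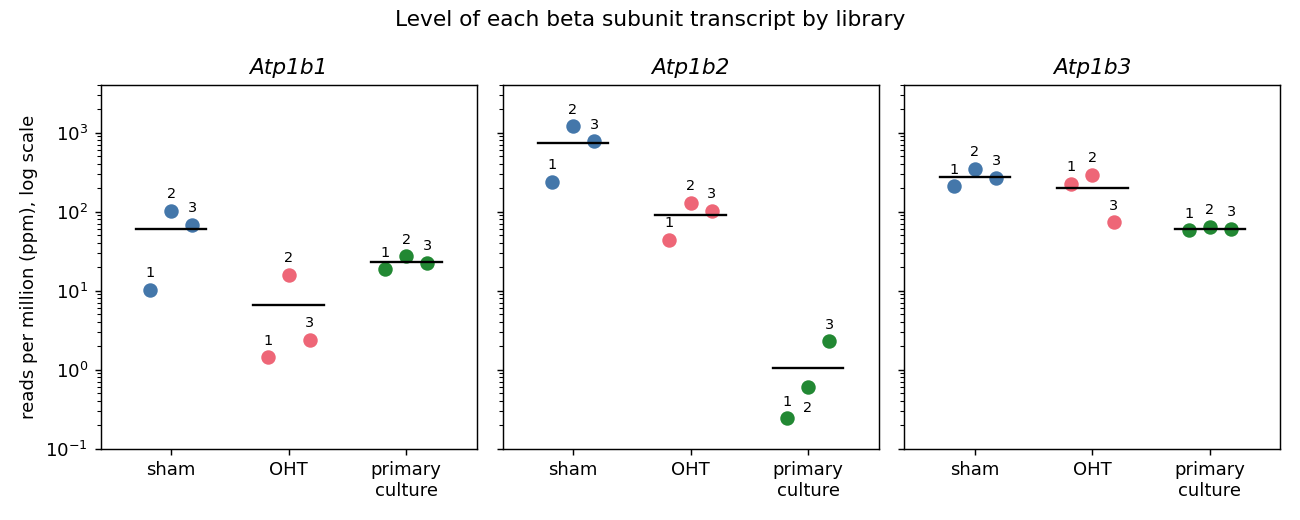
Each point is 1 library (numbered by replicate) and each bar the group mean, for Atp1b1, Atp1b2 and Atp1b3 in ppm on a log axis, in sham, OHT and primary culture. Atp1b2 runs from 1201 ppm in sham replicate 2 to 0.241 ppm in culture replicate 1, while Atp1b3 stays between 58 and 348 ppm in all 9 libraries.

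For scale, 14403 genes with a mean normalised count of at least 10 were compared between OHT and sham. Of the 3 beta subunits, 1 (Atp1b2) did not overlap between the groups, beside 18.4% of all 14403 genes, 9.18% lower and 9.26% higher in OHT. A log2 difference at or under that of Atp1b1 was reached by 2.8% of the genes, at or under that of Atp1b2 by 4.85%, and at or under that of Atp1b3 by 39%. The mean log2 value was lower in OHT for 3 of 3 beta subunits and for 54.8% of all genes. Nothing is read from these shares about the 3 genes, since Atp1b2 had been picked in this contrast. The median log2 difference over all genes was -0.12 in the deposited scaling and 0.01 after quantile normalization, and under that normalization the differences were -2.92 for Atp1b1, -2.89 for Atp1b2 and -0.77 for Atp1b3.

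Levels of different genes were compared as ppm per kilobase of the longest protein-coding transcript, which is 2580 bases for Atp1b1, 2842 for Atp1b2 and 1994 for Atp1b3. Atp1b2 stood at 83.7, 422.7 and 273.4 ppm per kilobase in sham replicates 1, 2 and 3. Atp1b3 stood at 104.1, 174.6 and 133.9 in the same order, and Atp1b1 at 4.00, 39.8 and 26.4. In sham replicates 2 and 3 Atp1b2 was thus the leading beta subunit, and in sham replicate 1 it was second to Atp1b3. Among 14900 genes with a length, Atp1b2 ranked 776, 100 and 184 from the top in these libraries.

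In OHT the order turned. Atp1b2 stood at 15.5, 45.1 and 35.8 ppm per kilobase in OHT replicates 1, 2 and 3, and Atp1b3 at 113.3, 145.8 and 36.6. Atp1b1 was at 0.55, 6.15 and 0.92. Atp1b3 was above Atp1b2 in 3 of 3 OHT libraries, by a wide margin in replicates 1 and 2 and by a margin of only 1.02-fold in replicate 3. The log2 ratio of Atp1b2 to Atp1b3 per kilobase was 0.66 ± 0.86 in sham and -1.53 ± 1.42 in OHT (SD, n = 3 each). The gap between Atp1b2 and Atp1b3 was thus smaller than its SD in sham and about as large as its SD in OHT, whereas Atp1b1 lay below Atp1b3 in 9 of 9 libraries and below Atp1b2 in 6 of 6 sorted libraries.

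As shares of the summed level of the 3 genes per kilobase, Atp1b2 made up 43.6, 66.4 and 63.0% in sham replicates 1, 2 and 3 and 12.01, 22.9 and 48.8% in OHT. Atp1b3 made up 54.3, 27.4 and 30.9% in sham and 87.6, 74.0 and 49.9% in OHT. The shares of the groups overlapped for both genes, through sham replicate 1 and OHT replicate 3. Atp1b1 made up 2.08 to 6.24% in sham and 0.428 to 3.12% in OHT. The summed beta level was 421 ± 223 ppm per kilobase in sham and 133 ± 62.0 in OHT (SD, n = 3 each).

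**Figure D2:**
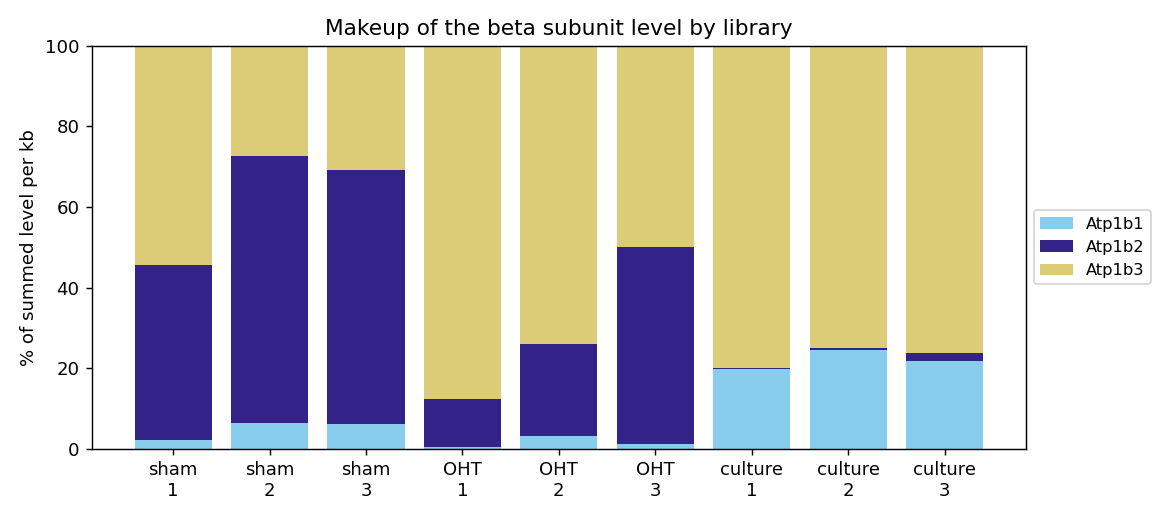
Stacked bars give each beta subunit as a percentage of the summed level of the 3 genes per kilobase, in each of the 9 libraries. Atp1b2 takes 66.4% in sham replicate 2 and 0.235% in culture replicate 1, where Atp1b3 takes 79.9%.

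The cultures held the beta subunits in another order. Atp1b2 was at 0.241, 0.608 and 2.27 ppm in culture replicates 1, 2 and 3. Each of these values lay below each of the 6 sorted values, and the sham mean was 711 times and the OHT mean 87.9 times the culture mean. Both ratios lean on culture replicate 3, without which the culture mean went from 1.04 to 0.425 ppm. Since the tables were normalized separately, these levels carry no test. Atp1b3 was even, at 57.6, 64.3 and 60.1 ppm, and the sham mean was 4.52 times and the OHT mean 3.24 times the culture mean. The lowest sorted library, OHT replicate 3 at 73.0 ppm, was still above the highest culture.

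Atp1b1 was at 18.5, 27.2 and 22.3 ppm in the cultures. This lay inside the sham range, above 3 of 3 OHT libraries and above sham replicate 1. Per kilobase the cultures ordered the genes Atp1b3, Atp1b1 and Atp1b2 in 3 of 3 libraries, with gaps beyond the spread of the libraries, and Atp1b1 made up 19.9 to 24.5% of the beta level. Atp1b2 made up 0.235 to 2.02%. Slc1a3, the gene of the sorting antigen, was at 23.9 to 49.6 ppm in the cultures and 140 to 802 ppm in the sorted libraries, so it too was lower in culture, and the ratio of normalised counts of Atp1b2 to Slc1a3 was 0.0101 to 0.0457 in culture against 0.853 to 1.95 in sham and 0.285 to 0.846 in OHT. The 9 rod markers that are in the culture table summed to at most 0.00139% of culture reads. The microglia list summed to 0.0100 to 0.0154%. The parts of these cell types in the level of each subunit were not tested.

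The next values set the beta subunits beside the marker lists within the sorted libraries, where the mix of cells differed. Sham replicates 1 and 3 had nearly the same Müller glia share, 0.372 and 0.356% of reads, while replicate 3 had 7.56 times the rod share of replicate 1 and 0.645 times its microglia share. Between these libraries Atp1b1 was 6.60 times, Atp1b2 3.27 times and Atp1b3 1.29 times as high in replicate 3. Slc1a3 was 1.43 times as high there. The astrocyte list also differed, 87.1-fold, so these libraries differed in more than the rod list.

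Sham replicate 1 and OHT replicate 3 were the sham and OHT libraries closest in Müller glia and rod share, a pair picked after the values were seen. Their Müller glia shares were 0.372 and 0.425%, their rod shares 0.303 and 0.370%, and their microglia shares 5.29 and 4.65%. Atp1b2 was at 238 ppm in the sham library and 102 ppm in the OHT library, a ratio of 2.34. The ratio was 4.34 for Atp1b1, 2.85 for Atp1b3 and 0.78 for Slc1a3. In this pair all 3 beta subunits were higher in the sham library, and the rod and Müller glia lists slightly lower. For Atp1b2 any pair of a sham and an OHT library gives this order, since the groups did not overlap. For Atp1b3, OHT replicate 3 was the lowest of the sorted libraries. The part of the cell mix in these ratios was not tested. The pair was not alike in other respects: mitochondrially encoded genes took 14.1% of reads in the sham library and 2.19% in the OHT library, and the astrocyte list stood at 0.137 times its OHT value in the sham library. With 1 library on each side there is no replicate check.

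**Figure D3:**
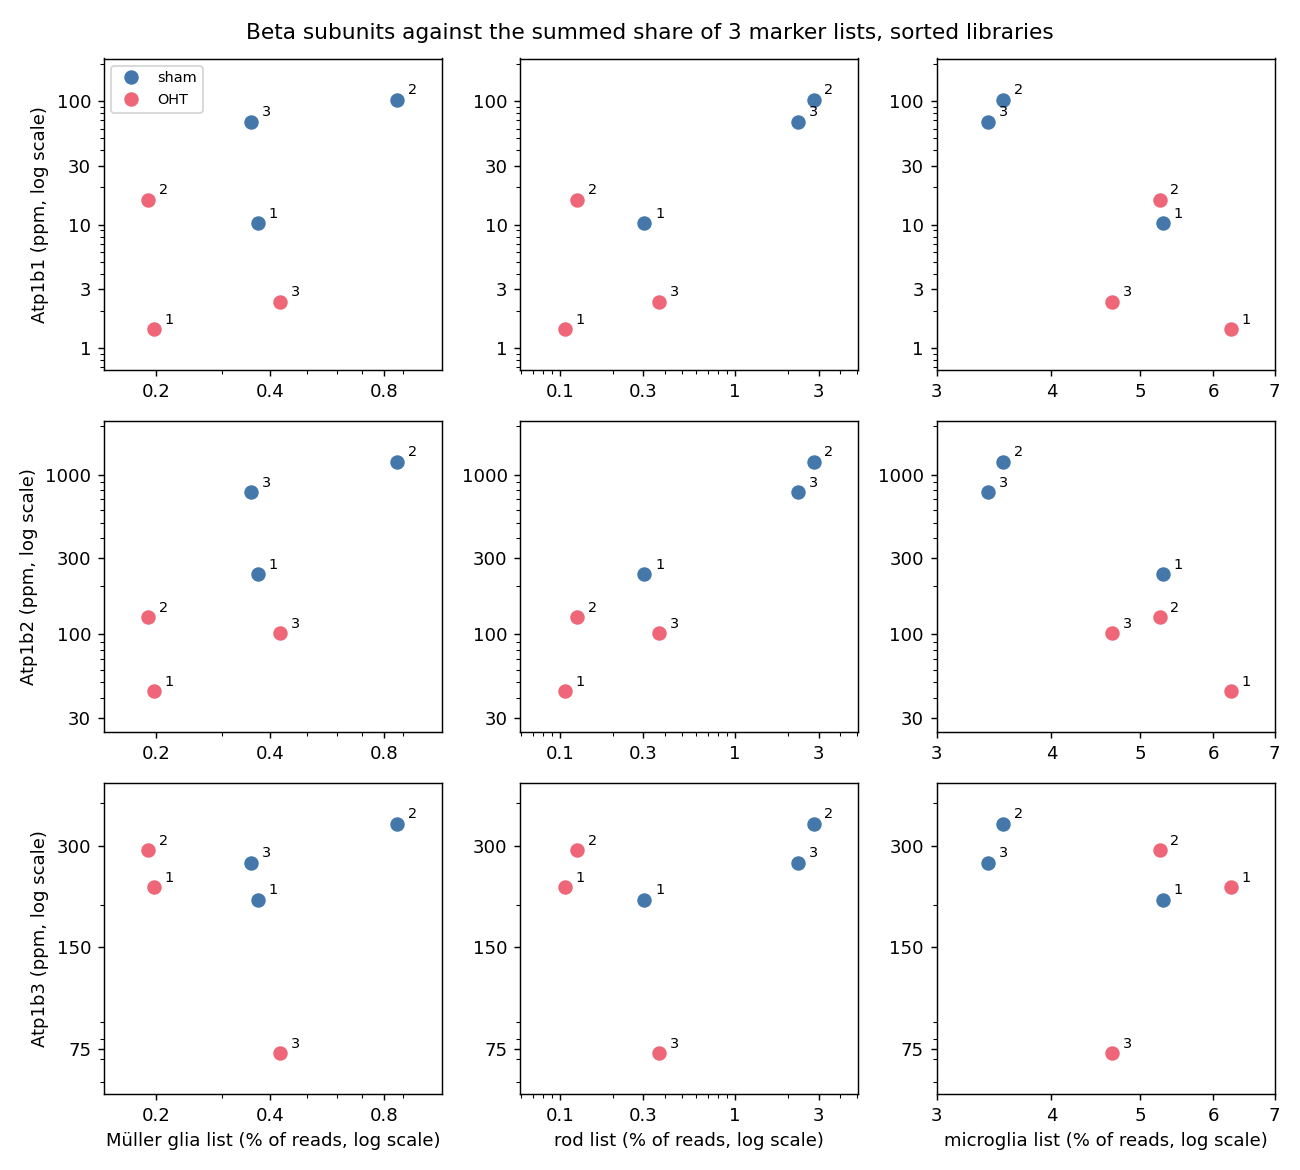
Each panel sets a beta subunit (rows, ppm, log axis) against the summed share of the Müller glia, rod or microglia list (columns, % of reads, log axis), with 1 numbered point per sorted library. Atp1b2 is highest in sham replicates 2 and 3, which hold 2.81 and 2.29% rod reads and the lowest microglia shares, while Atp1b3 is highest in sham replicate 2 and OHT replicate 2.

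Likeness of pattern was described by Pearson's r of log2(normalised count + 1) over the 6 sorted libraries, first as they are and then after subtracting each group's mean, for 11531 genes with a mean of at least 100 other than the gene itself. The points share their group, depth and cell mix, and with 6 points high values of r are common, so r is given without p. Atp1b1 and Atp1b2 ran together, with r = 0.95 and 0.90 after subtraction, and the second value ranged from 0.85 to 0.98 when each library was left out. Atp1b3 ran with Atp1b1 at r = 0.50 and with Atp1b2 at 0.34, and these turned to -0.04 and -0.11 without OHT replicate 3. After subtraction they were 0.49 and 0.26, with ranges of 0.31 to 0.85 and 0.06 to 0.79 when each library was left out. Of all genes, 2.33% had r over 0.9 with Atp1b1, 2.40% with Atp1b2 and 4.38% with Atp1b3.

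Of the marker lists, the rod list had the highest median r with Atp1b2, with the astrocyte list near it after subtraction. The median with the 14 rod genes was 0.88, and 0.74 after subtraction of group means, with 14 of 14 positive in both. With the 12 Müller glia genes the medians were 0.59 and 0.38, with 11 of 12 positive, and with the 12 microglia genes -0.70 and -0.56, with 2 and 0 of 12 positive. The 3 astrocyte genes above the level needed gave 0.71 and 0.70. The ganglion cell, mural and endothelial lists gave 0.74, 0.73 and 0.70 before subtraction, also above the Müller glia list, and 0.07, -0.03 and 0.23 after it. The erythrocyte list gave 0.03 before subtraction and 0.43 after it, the second also above the Müller glia list, with 5 of 5 genes positive. Over all genes the medians were 0.04 and -0.01. The rod value rests on sham replicate 1, since without it the median after subtraction was -0.28, and the Müller glia value was -0.34 without sham replicate 2. Among single markers, r with Atp1b2 before and after subtraction was 0.88 and 0.76 for Gnat1 (rod transducin). It was 0.80 and 0.61 for Slc1a3, 0.62 and 0.32 for Rlbp1, and 0.44 and 0.10 for Glul (glutamine synthetase of Müller glia). For Gfap (the astrocyte filament) it was 0.61 and 0.70. Of the microglial genes, Cx3cr1 (the chemokine receptor) had -0.44 and -0.69, and Csf1r 0.07 and -0.39.

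Atp1b1 had medians of 0.75 and 0.43 with the rod list, 0.36 and 0.01 with the Müller glia list and -0.61 and -0.42 with the microglia list, each before and after subtraction. The rod value after subtraction turned to -0.70 without sham replicate 1. The 3 astrocyte genes gave medians of 0.64 and 0.62 with Atp1b1, the second being the highest of the lists after subtraction. The ganglion cell, endothelial and mural lists gave 0.54, 0.56 and 0.53 before subtraction, above the Müller glia list, and -0.09, 0.09 and -0.31 after it. Atp1b3 had medians of 0.14 and -0.05 with the rod list, -0.01 and -0.21 with the Müller glia list and 0.18 and 0.44 with the microglia list, where 8 and 9 of 12 genes were positive. The last value turned to -0.35 without OHT replicate 3. With Atp1b3 the endothelial, ganglion cell and mural lists gave 0.28, 0.26 and 0.26 before subtraction, above the microglia list, and 0.15, 0.07 and 0.08 after it. Atp1b3 had negative r with 8 of 8 cone genes and 6 of 6 bipolar cell genes on both scales. This was not particular to Atp1b3. After subtraction 0 of 8 cone genes were positive for Atp1b1 and 1 of 8 for Atp1b2, and before it 2 and 5 of 8. Of the bipolar cell genes, 1 of 6 was positive for each of Atp1b1 and Atp1b2 on both scales. OHT replicate 3, the lowest library of Atp1b3, had the highest cone share (0.0728% of reads) and bipolar share (0.0311%) of the 6. The part of that library's cell mix in these values was not tested.

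The 5 genes most like each subunit were read off the same ranking. For Atp1b1 they were Igdcc4, Lrrc24, Dag1, Hepacam and Stxbp6, with r from 0.992 to 0.997. Dag1 encodes dystroglycan, and Hepacam the glial adhesion protein GlialCAM. For Atp1b2 they were Nrxn2, Slc38a3, Epas1, Abat and Plcd3, with r from 0.993 to 0.996. Slc38a3 is a glutamine transporter that glia use, and Abat breaks down GABA. Normalised counts of Nrxn2, a neurexin, were 57.9, 313 and 197 in sham replicates 1, 2 and 3 and 20.7, 37.9 and 32.1 in OHT. For Atp1b3 they included Slc25a38, Btbd1, Hnrnpll and Psme3, with r from 0.993 to 0.998, and these were lowest, like Atp1b3, in OHT replicate 3. After subtraction of group means the first 5 were Pdgfc, Anxa11, Mapre3, Acap3 and Stxbp6 for Atp1b1, Nrxn2, Sugp1, Cbs, Pcdh7 and Ociad2 for Atp1b2, and, among others, Pank4, Slc25a38, Polr2m and Rab6a for Atp1b3. Nrxn2 led the Atp1b2 ranking on both scales.

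Of the FXYD regulators 6 were tested, with 3 lower and 3 higher in OHT and none past the adjusted threshold in limma. Fxyd5, or dysadherin, a regulator that also weakens adhesion between cells, had normalised counts of 3898, 2265 and 4681 in sham replicates 1, 2 and 3 and 12343.0, 9132.4 and 7709.2 in OHT. Each OHT library was above each sham library, the opposite order to Atp1b2, with a log2 difference of 1.46 (SE 0.37, limma adjusted p = 0.332). DESeq2 on the recovered reads put it past the threshold (adjusted p = 0.0466). Fxyd6, or phosphohippolin, had 3720, 15285 and 7325 in sham and 3552, 2246 and 2842 in OHT, with no overlap and a log2 difference of -1.40 (SE 0.47, limma adjusted p = 0.343). Fxyd7 had 44.4, 79.3 and 56.5 in sham and 4.15, 30.5 and 40.9 in OHT, again without overlap. Fxyd1, phospholemman, differed by -0.19 (limma adjusted p = 0.867) and overlapped, as did Fxyd2 at 0.50 and Fxyd3 at 0.39. With Atp1b2, r was 0.89 for Fxyd6 and -0.88 for Fxyd5, values that include the group difference by which Atp1b2 was picked. After subtraction of group means they were 0.72 and -0.48. In the cultures Fxyd5 stood at 225 ppm, above its sham mean of 89.1 ppm, whereas Fxyd1 and Fxyd6 stood at 0.656 and 0.693 ppm.

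Among partners of the beta subunits, Hepacam and Mlc1 are membrane proteins that form a complex in glia to which Atp1b1 has been tied. Hepacam had normalised counts of 39.3, 565 and 272 in sham replicates 1, 2 and 3 and 11.1, 95.5 and 6.41 in OHT. Mlc1 had 3490, 18133 and 11318 in sham and 4278, 2529 and 4196 in OHT. For both genes sham replicate 1 lay below the highest OHT library. They differed by -3.16 (SE 1.34, limma adjusted p = 0.405) and -1.33 (SE 0.53, limma adjusted p = 0.385) on the log2 scale, and neither passed the adjusted threshold. Sham replicate 1 had the lowest level among sham libraries of Atp1b1, Atp1b2, Mlc1 and Hepacam alike.

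The Nkain genes, whose products bind Atp1b1, were scarce in the sorted libraries, where Nkain1, Nkain2 and Nkain3 were under the level needed for the test. In the cultures Nkain4 was at 98.9 ppm on average, against 0.958 in sham and 0.263 in OHT. Nkain1 was at 13.2 ppm against 0.203 and 0.170. The cultures thus held the highest mean levels of Nkain1 and Nkain4. Atp1b1 made up its highest share of the beta level there, where Atp1b2 was nearly missing. The mean level of Atp1b1 was not highest there, at 22.7 ppm in the cultures, 60.3 ppm in sham and 6.56 ppm in OHT. In the sorted libraries Nkain4 differed by -2.19 on the log2 scale (limma adjusted p = 0.577). The distant beta relative Atp1b4 had 83.7, 45.2 and 15.3 normalised counts in sham and 31.8, 0 and 7.21 in OHT (limma adjusted p = 0.524).

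Transporters that use the sodium gradient had a lower mean log2 value in OHT in 7 of 7 tested cases, beside 54.8% of all genes. None passed in limma. By mean normalised count Slc12a2 was higher in OHT, at 1398 against 1203 in sham. Slc24a1, the sodium-calcium-potassium exchanger of rods, averaged 113 ppm in sham and 49.7 ppm in OHT and 0.0174 ppm in the cultures (log2 difference -1.14, SE 0.63, limma adjusted p = 0.493). Slc8a3, a sodium-calcium exchanger, did not overlap (log2 difference -3.35, SE 1.54, limma adjusted p = 0.430). Slc8a1 was at -0.68, Slc24a2 at -2.07, Slc12a2 at -0.08 and Slc4a4 at -2.83 on the log2 scale, each with overlap. By mean log2 value 4 calcium pumps were lower and 2 higher in OHT. The differences were -0.89 for Atp2a1, -1.33 for Atp2a3, -0.86 for Atp2b2, -0.08 for Atp2b4, 0.25 for Atp2a2 and 0.39 for Atp2b1.

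**Figure D4:**
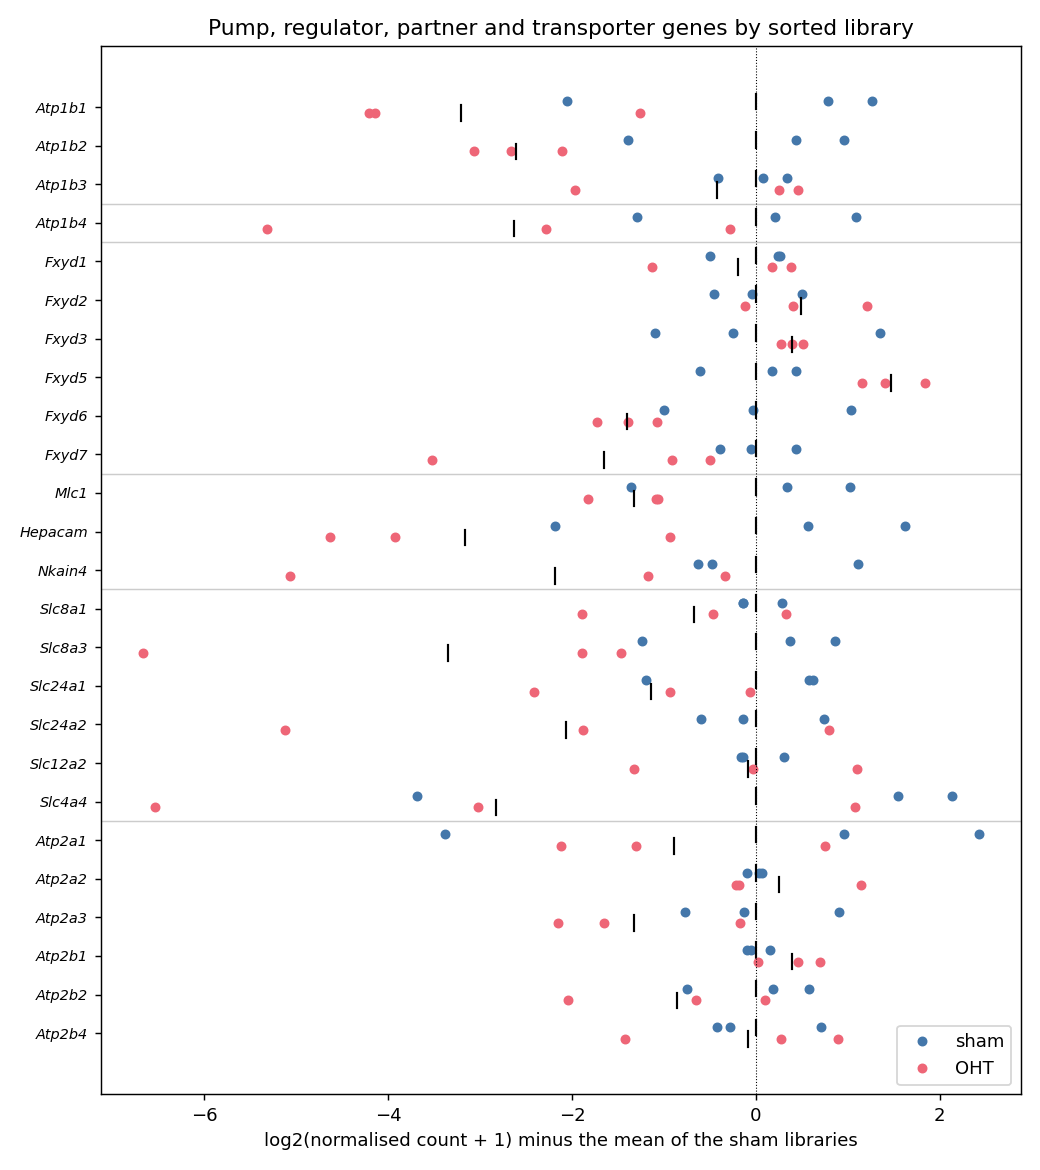
For the 3 beta subunits and 22 of the 27 tested genes of the list, points give each sorted library as log2(normalised count + 1) minus the mean of the sham libraries, and black ticks the group means. Atp1b2, Fxyd6, Fxyd7 and Slc8a3 have all OHT points left of all sham points, and Fxyd5 has all of them to the right.

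Of the 27 tested genes of the list, 22 had a lower and 5 a higher mean log2 value in OHT, beside 54.8% lower among all genes. The median log2 difference was -1.15, against -0.12 over all genes. None of the 27 passed the adjusted threshold in limma or in edgeR, and the smallest limma adjusted p was 0.332. DESeq2 passed 2 of the 27, 1 of them Fxyd5. At an unadjusted p under 0.05, limma passed 7 of 27 (25.9%), against 1680 of all genes (11.7%, of which 6.3% lower and 5.37% higher), but the 7 became 2 without sham replicate 2 and 11 without sham replicate 1. The groups did not overlap for 4 of 27 (14.8%), against 18.4% of all genes. Over all 14403 genes limma and edgeR each passed 0 (0%) and DESeq2 passed 250 (1.74%), 196 of them lower in OHT.

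The rod list was lower on average in OHT, with overlap through sham replicate 1 and OHT replicate 3, and the mitochondrial share was lower in each OHT library than in each sham library. The Müller glia list overlapped between the groups. The part of these shares in the differences of the beta subunits and of the listed genes was not tested.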

How the data were processed

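RNA of 9 libraries was sequenced as 150 bp pairs. Per the submitters' processing notes, bcl2fastq 2.20, Trim Galore 0.6.6, FastQC 0.11.9, STAR 2.7.1a and build mm39 were used. The counter, annotation and normalization tool were not given in the sources used here. The signal deposited by the authors is a gene count divided by 1 factor per library, not by length: after division by the smallest step, 100% of the sorted values were whole reads (tolerance 0.05).

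Groups came from the labels. OHT and sham were compared with limma 3.58.1 (R 4.3.3, variance trend, no covariate) on log2(value + 1), which understates changes of low genes, in genes with a mean of at least 10, with Benjamini-Hochberg adjustment over 14403 genes. The script was tested on simulated data. Levels are reads per 1e6 reads of the library (ppm), per kilobase of GENCODE M21 (GRCm38) transcripts between genes, which gave a length for 91.0% of the sorted table's genes. Alternatives were pseudocounts of 0.5 and 10, other filters and scalings, no trend, a replicate block, each library left out, edgeR 4.0.16 and DESeq2 1.42.0 on recovered reads, coding length, Spearman's rho and totals without the 20 highest genes.

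Named were the beta subunits, the listed pump and transporter genes, the 5 genes most like each subunit and 9 markers. Some further genes of the marker lists were named to show how these lists differed within. Nkain2, Slc8a2, Fxyd4, Atp2b3, Atp4a, Atp4b and Atp12a were not tested. Some genes under this rule are counted in the totals but not reported here by name. The members, the lists and the tests were chosen with earlier results of these data known. RefSeq promoter windows matched 2 of the 3 beta subunits, not Atp1b2.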

Additional observations from a re-analysis of the deposited data

How the results depend on the processing

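Of 262 alternative values, 228 stayed within the spread set for them or near the count reported, 20 moved and 14 turned sign. That spread was the SD of the libraries for levels and differences. For likeness medians it was the SD of r over the genes of the list, which is not a spread of libraries. The log2 difference of Atp1b1 ranged from -4.23 to -2.57 and that of Atp1b2 from -3.31 to -2.14 when each library was left out, and that of Atp1b3 from -0.86 to 0.35, the last without OHT replicate 3. With a total without the 20 highest genes, Atp1b3 moved to 375 ppm in sham and 68.1 ppm in culture. With coding length, log2 Atp1b1 over Atp1b3 in culture was -1.57 in place of -1.81.

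Genes past the adjusted threshold, 0 in limma, numbered 250 with DESeq2 (54 higher, 196 lower), and 0 to 17 without single libraries (12, all lower, without sham replicate 1; 17, all higher, without sham replicate 3). The replicate block gave 2 (1 lower, 1 higher). Same-numbered libraries correlated at 0.08, -0.02 and -0.05 in their deviations from group means, and differently numbered ones at -0.07 to 0.10. Deviations from a mean of 3 libraries are tied to each other, so this cannot settle whether same-numbered libraries were paired. In the listed pump genes the count was 2 with DESeq2 and 0 without any single library. Unadjusted counts ran from 544 to 2508 over all genes and 2 to 11 in the list, where it was 2 without the trend.

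The likeness medians after subtraction of group means were the least stable. Leaving out each library, Atp1b1 ranged from -0.65 to 0.56 with the Müller glia list, -0.70 to 0.95 with the rod list and -0.83 to -0.11 with the microglia list. Atp1b2 ranged from -0.34 to 0.67, -0.28 to 0.96 and -0.72 to -0.43 with the same lists, and Atp1b3 from -0.46 to 0.77, -0.76 to 0.92 and -0.35 to 0.62. Spearman's rho gave -0.086 for Atp1b1 with the Müller glia list, and quantile normalization -0.046 for Atp1b3 with the microglia list. The cause of these changes was not tested. The part of depth in these values was not tested.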
